A study of Danio rerio with 2 samples.

Results

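The proteasome subunit genes were taken as all gene IDs with a row in both count tables whose symbol starts with psma, psmb, psmc, psmd or psme, in any case, and with at least 50 counts in at least 1 heart. Of 14452 genes with a row in both tables, 44 met this rule. A further 3 (psma6l, PSMC3IP and PSME3) were in both tables but under 50 counts in each heart, and 8 IDs with such a symbol were not analysed here, among them PSMB5 and PSMA1. Of the 44 members, 43 encode subunits, activators or assembly chaperones of the proteasome, and PSME3IP1, which encodes a protein that binds an activator, was kept apart. The immunoproteasome members were PSMB8, PSMB9, PSMB10, PSME1 and PSME2, and the other 38 are called constitutive here.

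The proteasome is the protease complex that degrades proteins tagged with ubiquitin. Its barrel, the 20S core, is built from rings of alpha subunits (psma genes) around rings of beta subunits (psmb genes), a few of which cut the substrate. The 19S cap holds ATPases (psmc genes) that unfold substrates and non-ATPases (psmd genes) that bind and strip ubiquitin. In leukocytes, and in other cells exposed to interferon, the catalytic subunits PSMB6, PSMB7 and PSMB5 are replaced by PSMB9, PSMB10 and PSMB8, which makes the immunoproteasome, and PSME1 with PSME2 forms an alternative cap. The immunoproteasome is known for cutting peptides that are presented on class I molecules.

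The samples were 1 heart at 7 days post injury (dpi) and 1 heart at 3 dpi, both adult zebrafish ventricles injured by cryoinjury, in which part of the ventricle wall is killed by freezing, and both with WT in their title. No other allele, agent or treatment was given in the labels. Each ventricle was cut into 12 µm cryosections from the injury toward the uninjured remote myocardium, and RNA of each section was barcoded and amplified by CEL-seq, which counts transcripts by their 3′ ends. Of 38 sections at 7 dpi, 24 were kept, with 20832 to 813848 counts each, and section 34 alone held 25.5% of the kept counts. Of 40 sections at 3 dpi, 35 were kept, with 39495 to 302404 counts each. Each day had 1 heart, so there was no replicate and no test, and the sections describe that heart alone. Levels are counts per 1000000 gene counts (CPM), ranges in parentheses after a level, share or fold are exact 95% intervals of the counts, and they cover counting error only. These intervals treat each count as independent, and are too narrow if several counts stem from the same molecule.

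The kept sections of each heart were divided by their other genes into 3 contiguous domains, named by place. The injury-side, middle and remote-side domains spanned sections 1 to 7, 8 to 21 and 22 to 34 at 7 dpi, with 5, 12 and 7 kept sections, and sections 1 to 10, 11 to 20 and 21 to 40 at 3 dpi, with 5, 10 and 20. Marker sums differed between the hearts. Cardiomyocyte markers summed to 135.6 to 444.9 CPM in injury-side sections and 6625 to 43229 CPM in remote-side sections at 7 dpi, against 2527 to 20689 and 47670 to 75111 CPM at 3 dpi. TNNT2, TNNI1, MYH6 and nppa had 0 counts in the injury-side domain at 7 dpi, which allows up to 15.03 CPM. From injury to remote side, leukocyte markers summed to 2010 to 4286, 2668 to 8189 and 737.2 to 3557 CPM at 7 dpi, and to 5283 to 9132, 1475 to 4740 and 552.1 to 1714 CPM at 3 dpi. Over all genes 15.4% were at least 2-fold up on the injury side and 31.1% down at 7 dpi, and 33.8% and 15.8% at 3 dpi. Equally named domains held unlike tissue in the hearts. Of the measured markers, 1 of 13 of cardiomyocytes was at least 2-fold up on the injury side and 12 were down at 7 dpi, against 0 and 10 of 12 at 3 dpi, and of leukocytes 8 of 12 and 11 of 11 were up and 0 down. Up and down counts were 2 and 0 of 2 for lymphocytes at 7 dpi, with 0 measured at 3 dpi, 0 and 3 of 4 against 1 and 0 of 5 for endothelium, and 0 and 2 of 3 against 2 and 0 of 5 for erythrocytes, with 7 dpi before 3 dpi. They were 1 and 3 of 11 against 7 and 0 of 9 for epicardium and fibroblasts, and 0 and 5 of 6 against 2 and 1 of 5 for smooth muscle. In a section, fewer cells of a type and less RNA per cell cannot be told apart.

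The constitutive and the immunoproteasome sum overlapped between all domains of the 7 dpi heart, and both were higher on the injury side of the 3 dpi heart. At 7 dpi the constitutive sum was 2368 to 3936 CPM in injury-side sections (median 3526), 3248 to 4294 CPM in the middle (median 3487) and 2912 to 4138 CPM on the remote side (median 3771). The immunoproteasome sum was 189.6 to 361.6 CPM (median 239.6), 56.5 to 352.2 CPM (median 193.6) and 111.8 to 253.8 CPM (median 186.1) in the same order.

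At 3 dpi the constitutive members summed to 4053 to 5014 CPM in the 5 injury-side sections (median 4763), 3153 to 4981 CPM in the middle (median 3714) and 1514 to 2962 CPM in the remote-side ones (median 2014). The injury-side and remote-side sections did not overlap in this sum. The immunoproteasome members summed to 298.9 to 650.7 CPM (median 486.2) in injury-side sections, 250.1 to 499.0 CPM (median 390.8) in middle sections and 88.4 to 426.8 CPM (median 165.6) in remote-side sections. These ranges overlapped through injury-side section 10, the lowest there, and remote-side section 25, the highest there. In section 25 PSMB8 stood at 131.3 CPM, PSMB9 at 65.7 CPM, PSMB10 at 82.1 CPM and PSME1 at 147.7 CPM. The sum rested on 26 counts there, and 3 counts correspond to 49.3 CPM.

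**Figure D1:**
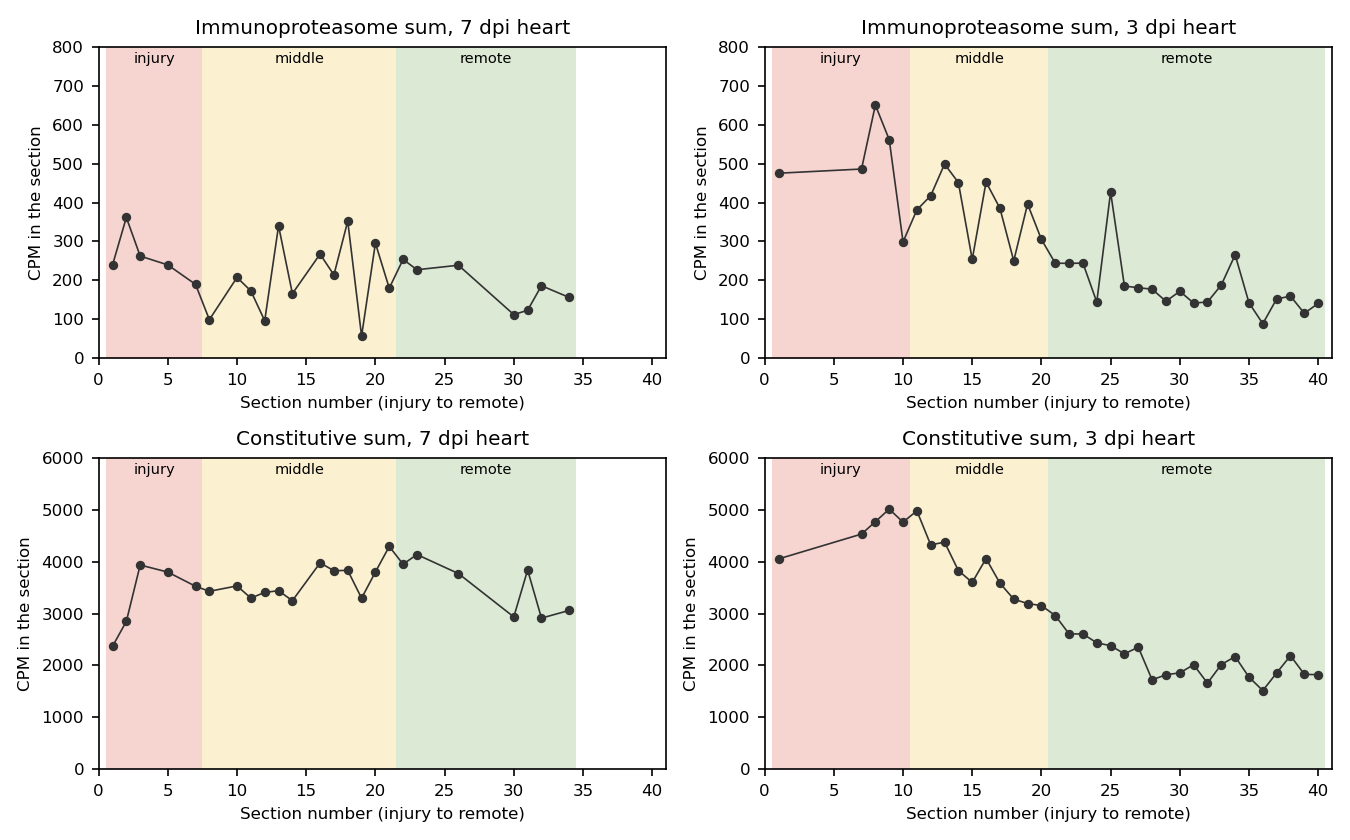
Summed level in CPM of the 5 immunoproteasome members (top) and the 38 constitutive members (bottom) in each kept section, by section number from injury to remote side, in the 7 dpi heart (left) and the 3 dpi heart (right); shading marks the 3 domains. The constitutive sum was 2368 to 3936 CPM on the injury side and 2912 to 4138 CPM on the remote side at 7 dpi, and 4053 to 5014 and 1514 to 2962 CPM at 3 dpi.

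Summed over the domain, the constitutive members were 1.02-fold on the injury side relative to the remote side at 7 dpi (0.937 to 1.1) and 2.24-fold at 3 dpi (2.103 to 2.382). The immunoproteasome members were 1.36-fold at 7 dpi (0.988 to 1.84) and 2.84-fold at 3 dpi (2.33 to 3.45).

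Gene by gene, at least 50 counts in the heart were required, which 40 of the 43 subunit, activator and chaperone genes had at 7 dpi and 42 at 3 dpi. A gene was counted as higher or lower when it differed at least 2-fold on the log2(CPM + 1) scale, which understates the difference of low genes. At 7 dpi, 4 of the 40 were higher in the injury-side than in the remote-side domain, beside 15.4% of all 4608 genes with 50 counts, and 5 were lower, beside 31.1%. The median log2 difference of the members was 0.02, beside −0.20 over all genes. At 3 dpi, 28 of the 42 were higher, beside 33.8% of 4784 genes, and 2 were lower, beside 15.8%. The median there was 1.30, beside 0.54 over all genes. The 3 dpi count depended on the scaling. Median-of-ratios scaling moved the median of all genes from 0.54 to −0.30, left 1 member higher, PSMD10, beside 10.8% of all genes, and 2 lower, beside 30.5%, and gave the members a median of 0.44. The part of the leukocyte and cardiomyocyte markers, which moved along the same axis, was not tested.

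The middle domain of the 3 dpi heart, like its injury side, held many members above their remote-side level. Relative to the remote side, 1 of the 40 members, psmb12, was at least 2-fold higher in the middle at 7 dpi, beside 14.5% of all genes, and 0 were lower, beside 13.4%. At 3 dpi, 16 of the 42 were higher in the middle, beside 16.1%, and 0 were lower, beside 2.86%. Between the injury side and the middle, 1 member, PSMB9, was higher on the injury side at 7 dpi, beside 8.07%, and 7 were lower, beside 29.9%. At 3 dpi 0 were higher, beside 14%, and 3 were lower, beside 13.8%, which were PSMB10 and both PSME4 genes.

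**Figure D2:**
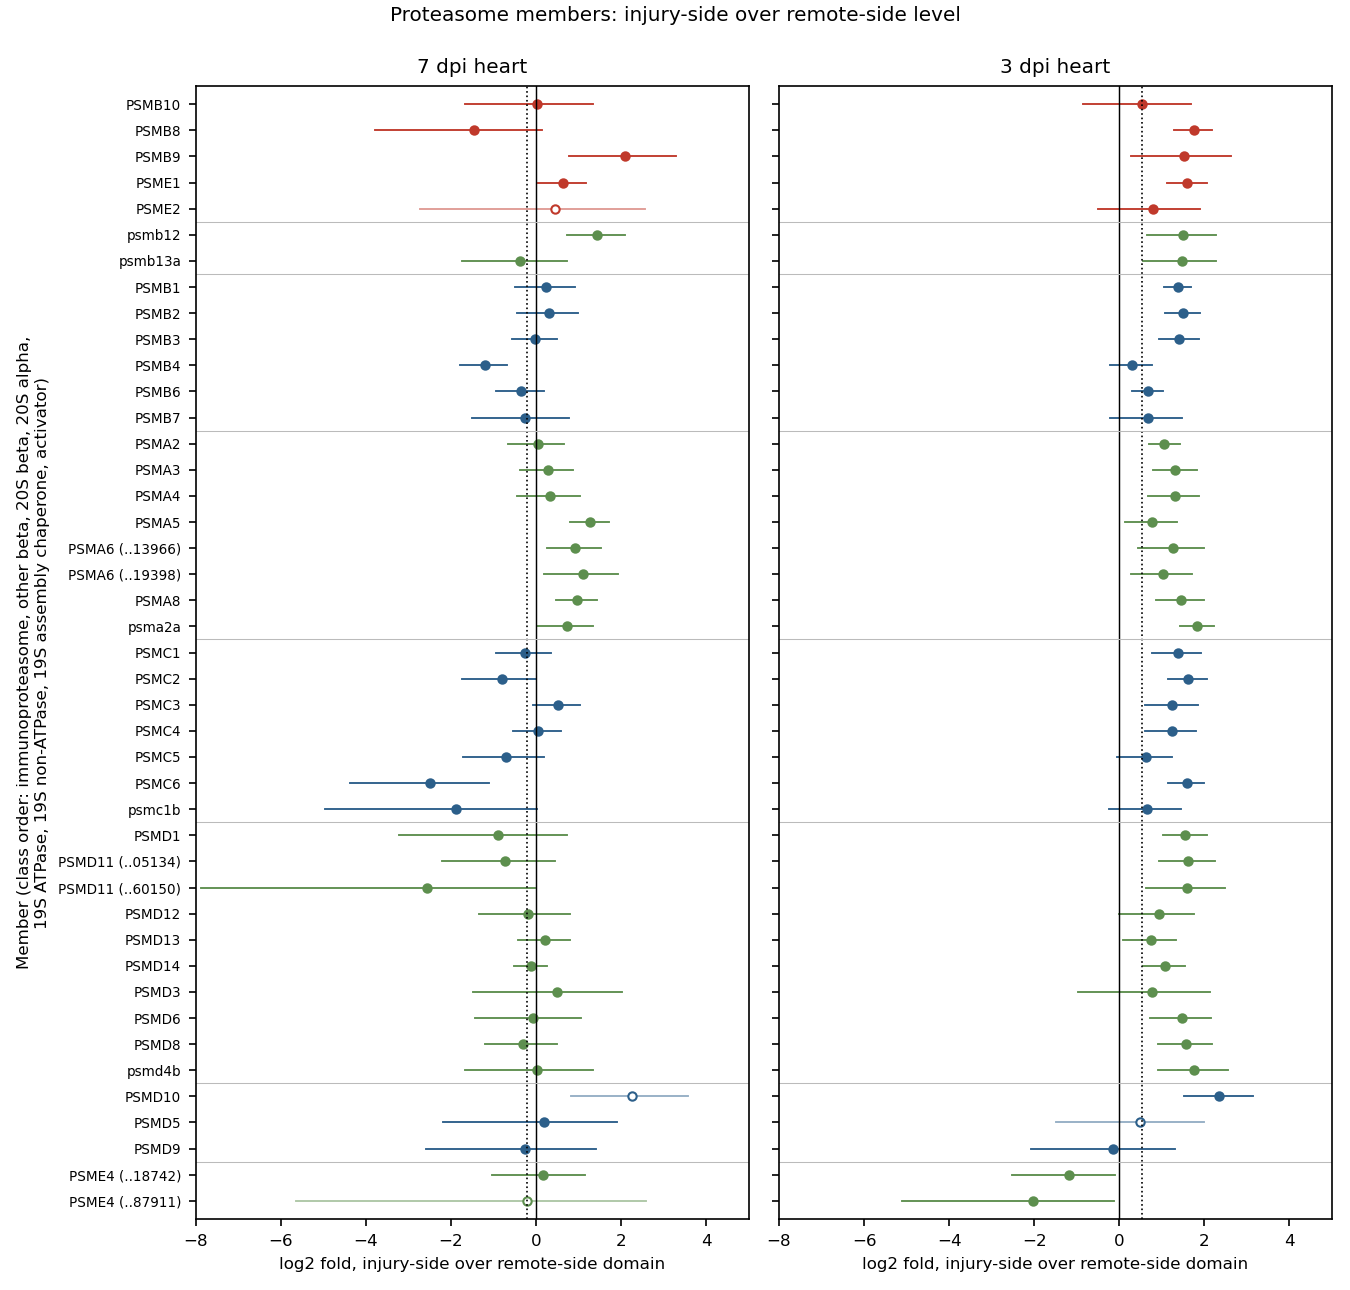
Log2 of the injury-side over the remote-side level for each subunit gene, grouped by class, at 7 dpi (left) and 3 dpi (right); bars are exact 95% intervals of the counts, open symbols are genes under 50 counts in that heart, red marks the immunoproteasome, and the dotted line is the median of all genes. On the log2(CPM + 1) scale the median of the 42 measured genes at 3 dpi was 1.30, beside 0.54 over all genes. At 7 dpi the median of the 40 measured genes was 0.02, beside −0.20.

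Among the immunoproteasome members, PSMB8, the chymotrypsin-like catalytic subunit that takes the place of PSMB5, stood apart between the hearts. At 7 dpi it was 37.5 CPM in injury-side section 3 and had 0 counts in sections 1, 2, 5 and 7, against 23.9 to 75.4 CPM in the remote-side sections (median 32.7). A count of 0 in those 4 sections allows 71.8 to 135.6 CPM. At 3 dpi PSMB8 was 225.2, 125.5, 263.4, 345.8 and 159.4 CPM in injury-side sections 1, 7, 8, 9 and 10, against 10.6 to 131.3 CPM in the remote-side sections (median 66.0). The injury-side sections of the 3 dpi heart lay above all remote-side ones except section 7, which fell below the highest of them. Over the domain PSMB8 had 3 counts and 15.03 CPM (3.10 to 43.9) on the injury side at 7 dpi and 41.5 CPM on the remote side, a 0.362-fold level (0.0731 to 1.097). At 3 dpi it had 219.1 CPM on the injury side and 65.4 CPM on the remote side, a 3.35-fold level (2.45 to 4.54). The 7 dpi interval spans 1, and with a lower section minimum, which moved the domain boundaries, the log2 difference turned from −1.41 to 0.18.

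PSMB9, which takes the place of PSMB6, was more than 2-fold higher on the injury side in both hearts. At 7 dpi it was 23.9, 90.4, 24.99, 102.7 and 37.9 CPM in injury-side sections 1, 2, 3, 5 and 7, against 0 to 37.7 CPM in the remote-side sections (median 12.3). It was thus detected in all 5 injury-side sections and in 6 of the 7 remote-side ones, and sections 1, 3 and 7 lay within or next to the remote-side range. Each injury-side value was at or below the level of 3 counts in its section, which was 37.5 to 135.6 CPM. At 3 dpi it was 78.4, 46.5 and 19.9 CPM in injury-side sections 7, 8 and 10 and had 0 counts in sections 1 and 9, against 0 to 65.7 CPM on the remote side (median 11.9). Its injury-side level was 4.29-fold its remote-side level at 7 dpi (1.72 to 9.85) and 2.86-fold at 3 dpi (1.20 to 6.13), each from 9 counts on the injury side.

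PSMB10, which takes the place of PSMB7, had its highest level in the middle of both hearts. At 7 dpi the domain levels were 25.1, 35.7 and 24.7 CPM from injury to remote side, with intervals that overlapped. At 3 dpi it was 0 to 39.9 CPM in injury-side sections (median 30.99), 17.3 to 108.3 CPM in middle sections (median 61.6) and 0 to 82.1 CPM in remote-side sections (median 12.0). All 10 middle sections had counts. The middle domain held 3.39-fold its remote-side level (2.28 to 5.06), and the injury side 1.45-fold (0.555 to 3.23).

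PSME1 and PSME2 encode the subunits of the alternative cap. PSME1 was 119.6, 271.2, 199.9, 136.9 and 37.9 CPM in injury-side sections 1, 2, 3, 5 and 7 at 7 dpi, against 55.9 to 148.9 CPM on the remote side (median 88.0). At 3 dpi it was 150.1, 251.0, 247.9, 194.5 and 79.7 CPM in injury-side sections 1, 7, 8, 9 and 10, against 0 to 147.7 CPM on the remote side (median 64.7). Some injury-side sections exceeded the remote-side range in each heart, while section 7 at 7 dpi lay below it and section 10 at 3 dpi inside it. Its injury-side level was 1.55-fold its remote-side level at 7 dpi (1.03 to 2.26) and 3.02-fold at 3 dpi (2.16 to 4.15). At 7 dpi the log2 difference of PSME1 turned from 0.63 to −0.41 without section 34 and to −0.11 with domains of equal section number. Leaving out section 34 also moved the injury side to sections 1 to 10 and the remote side to sections 18 to 32. The part of section 34 and that of the boundaries were not separated. PSME2 had 30 counts at 7 dpi, under the minimum, and at 3 dpi it was 30.2 CPM on the injury side and 17.4 CPM on the remote side, 1.73-fold with an interval that spans 1 (0.707 to 3.70).

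**Figure D3:**
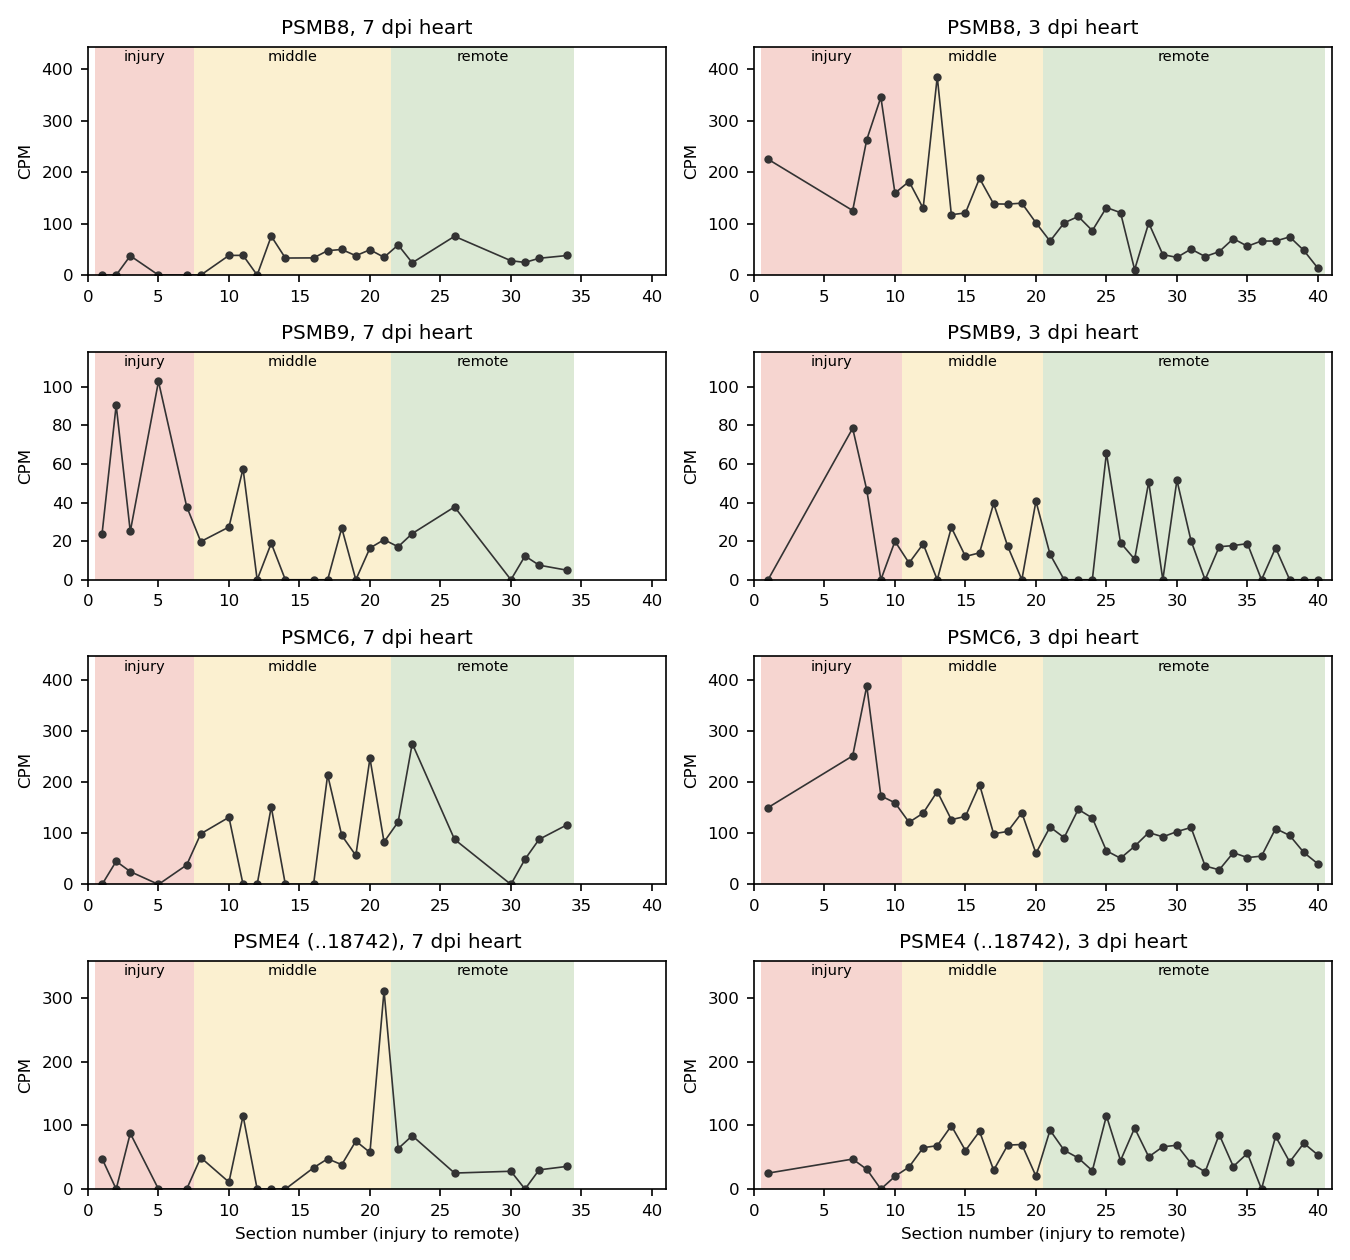
Level in CPM of PSMB8, PSMB9, PSMC6 and PSME4 (ENSDARG00000018742) in each kept section, by section number from injury to remote side, at 7 dpi (left) and 3 dpi (right). In injury-side sections PSMB8 was 0 to 37.5 CPM at 7 dpi and 125.5 to 345.8 CPM at 3 dpi, and PSMC6 was 0 to 45.2 CPM at 7 dpi and 150.1 to 387.3 CPM at 3 dpi; PSME4 was 0 to 47.1 CPM there at 3 dpi.

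As a group, 1 of the 4 measured immunoproteasome members was higher and 1 lower on the injury side at 7 dpi, beside 15.4% and 31.1% of all genes, with a median log2 difference of 0.32. At 3 dpi 3 of 5 were higher and 0 lower, beside 33.8% and 15.8%, with a median of 1.44. The constitutive members had medians of −0.0023 at 7 dpi and 1.28 at 3 dpi, with 3 of 36 higher and 4 lower at 7 dpi, and 25 of 37 higher and 2 lower at 3 dpi, beside the same shares of all genes. At 7 dpi the immunoproteasome median turned to −0.41 without section 34, the deepest, which also moved the boundaries of the domains. The number of members is small, and the difference between the groups was not tested.

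The share of the immunoproteasome in all counts of the 43 genes does not depend on how a domain is scaled. At 7 dpi it was 6.97% (5.23 to 9.06) on the injury side, 5.94% (5.25 to 6.68) in the middle and 5.34% (4.81 to 5.91) on the remote side. At 3 dpi it was 9.76% (8.23 to 11.5), 8.93% (8.07 to 9.85) and 7.83% (7.17 to 8.54). The share declined slightly from injury to remote side in both hearts, with injury-side and remote-side intervals that overlapped. Over all kept sections it was 5.66% at 7 dpi (5.25 to 6.09) and 8.45% at 3 dpi (7.95 to 8.97). PSMB8 supplied 125 of the 664 immunoproteasome counts at 7 dpi and 383 of the 973 at 3 dpi. PSME1, of the alternative cap, supplied 366 and 336. The part of single genes in the difference between the hearts was not tested. Single sections ranged from 1.69% in section 19 to 11.3% in section 2 at 7 dpi, and from 5.52% in section 36 to 15.2% in section 25 at 3 dpi.

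**Figure D4:**
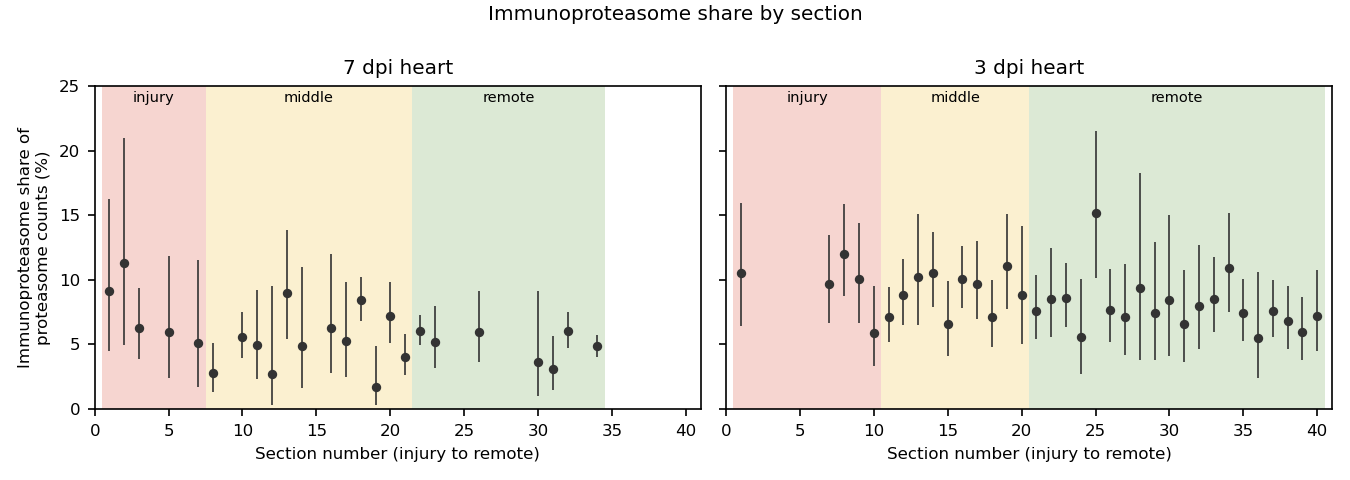
Immunoproteasome share of the counts of the 43 genes, in percent, in each kept section of the 7 dpi heart (left) and the 3 dpi heart (right); bars are exact 95% binomial intervals. Over all kept sections the share was 5.66% at 7 dpi and 8.45% at 3 dpi.

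Among the catalytic subunits alone the share was higher. PSMB8, PSMB9 and PSMB10 held 30.9% (19.1 to 44.8) of their counts together with PSMB6 and PSMB7 on the injury side, 32.9% (27.8 to 38.4) in the middle and 24.2% (20.9 to 27.9) on the remote side at 7 dpi. At 3 dpi the same shares were 45.1% (37.4 to 53.1), 41.6% (37.4 to 45.9) and 30.8% (27.7 to 34.1). Only at 3 dpi did the injury-side and remote-side intervals stand apart. All of these shares are from counts summed over a domain. Medians of single sections were 33.33%, 33.91% and 34.21% from injury to remote side at 7 dpi, without the lower remote-side value. At 3 dpi the medians were 47.83%, 42.52% and 28.99%. Section 34, on the remote side, held 36.03% of all PSMB6 counts at 7 dpi. Its part in the summed remote-side share was not tested. PSMB5, whose place PSMB8 takes, was not analysed here, so these shares are not those of the assembled complex. On the CPM scale both constitutive partners were below their remote-side level at 7 dpi and above it at 3 dpi. Apart from PSMB6 at 3 dpi, the intervals of these folds included a level equal to the remote side. The 3 dpi log2 differences of PSMB6 and PSMB7 were 0.66 and 0.67, beside a median of 0.54 over all genes. Median-of-ratios scaling moved that median to −0.30. PSMB6, which has caspase-like activity, was 0.783-fold on the injury side relative to the remote side at 7 dpi (0.521 to 1.14) and 1.58-fold at 3 dpi (1.22 to 2.02). PSMB7, which has trypsin-like activity, was 0.838-fold at 7 dpi (0.351 to 1.72) and 1.61-fold at 3 dpi (0.865 to 2.79).

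Further beta subunit genes of fish, psmb12 and psmb13a, lie beside psmb8a and psmb9a. In the RefSeq table of the GRCz12tu assembly, psmb13a, psmb8a, psmb12 and psmb9a followed each other with 0 protein-coding genes between neighbours. At 7 dpi, psmb12 was 143.5, 0, 99.96, 136.9 and 265.4 CPM in injury-side sections 1, 2, 3, 5 and 7, against 25.1 to 98.4 CPM on the remote side (median 55.9). Of these 5 sections, 4 lay above the whole remote-side range. Its injury-side level was 2.71-fold its remote-side level at 7 dpi (1.66 to 4.26) and 2.82-fold at 3 dpi (1.57 to 4.81). The gene psmb13a was 0.767-fold at 7 dpi (0.299 to 1.65) and 2.76-fold at 3 dpi (1.48 to 4.86). Its 7 dpi log2 difference turned from −0.37 to 1.21 with a lower section minimum and to 1.31 with a higher one. Counted with the immunoproteasome, these genes raised its share to 11.3% on the injury side and 7.96% on the remote side at 7 dpi, with intervals of 9.13 to 13.9 and 7.32 to 8.63.

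At 7 dpi the alpha class of the 20S core stood apart from 6 of its beta genes and from the ATPase and non-ATPase classes of the 19S cap. All 8 alpha subunit genes had a positive log2 ratio of injury-side over remote-side level there. Their median was 0.81, beside −0.20 over all genes, and 2 were at least 2-fold higher, beside 15.4% of all genes. Their sum was 1153 CPM on the injury side and 695.7 CPM on the remote side, 1.66-fold (1.43 to 1.91). These values are from counts summed over a domain, and section 3 held 40.11% of the injury-side counts. Medians of single sections were lower on the injury side for PSMA2 (95.67 beside 129.3 CPM) and PSMA4 (23.92 beside 72.5 CPM). For the other alpha genes they were higher there, for PSMA5 at 113.8 beside 103.1 CPM. The 7 ATPase genes had a median of −0.69, with 2 positive and 2 at least 2-fold lower, near the 31.1% of all genes that were lower. The ATPase sum was 0.772-fold (0.634 to 0.934). The 6 beta subunit genes PSMB1, PSMB2, PSMB3, PSMB4, PSMB6 and PSMB7 summed to 0.765-fold (0.641 to 0.907), with a median of −0.14. The beta genes psmb12 and psmb13a, also counted as constitutive, went the other way in sum, 1.74-fold (1.16 to 2.55). The 10 non-ATPase genes summed to 0.891-fold (0.741 to 1.06), with a median of −0.15. Single genes weighed on some of these sums. In the alpha sum, PSMA5 was 255.6 CPM on the injury side and 105.7 CPM on the remote side, and PSMA8 was 230.5 and 118.3 CPM. PSMB4, alone among the 6 beta genes in being at least 2-fold lower, was 155.3 CPM on the injury side and 359.2 CPM on the remote side. The ATPase gene PSMC6 was 20.04 and 112.5 CPM. The class values of either heart were not computed under the alternatives. Without section 34, which also moved the domain boundaries, the 7 dpi median of all members turned from 0.02 to −0.10. The median over all genes was then −0.17. At 3 dpi these 4 classes were all higher on the injury side on the CPM scale, by 2.42-fold (2.14 to 2.74) for alpha, 2.44-fold (2.11 to 2.80) for ATPase, 2.04-fold (1.81 to 2.29) for beta and 2.46-fold (2.13 to 2.84) for non-ATPase genes. The median log2 difference of all genes was 0.54 there, and −0.30 with median-of-ratios scaling. The part of the scaling in these folds was not tested.

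Of the alpha subunit genes, PSMA5 was 255.6 CPM on the injury side and 105.7 CPM on the remote side at 7 dpi, 2.42-fold (1.74 to 3.30), and PSMA6 (ENSDARG00000019398) was 2.13-fold (1.13 to 3.77). For PSMA5, sections 3 and 5 carried the difference, with 437.3 and 308.0 CPM beside 47.8 to 113.8 CPM in sections 1, 2 and 7. Its log2 difference of 1.27 was 0.37 without section 34, which also moved the domain boundaries. It was 0.41 from the mean of section CPM, and both values are under 2-fold. Without section 34, and with the same moved boundaries, the PSMA6 log2 difference turned from 1.07 to −0.16. At 3 dpi the gene psma2a was the alpha gene with the highest difference, 3.54-fold (2.67 to 4.65), at 150.1 to 497.1 CPM in injury-side sections and 22.1 to 151.7 CPM in remote-side ones. The pairs PSMA2 and psma2a, the IDs of PSMA6, of PSMD11 and of PSME4, and PSMC1 and psmc1b are close paralogs that may share reads, so the split within each pair is uncertain.

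PSMC6, an ATPase of the cap that unfolds substrates, had the lowest injury-side over remote-side difference at 7 dpi on the log2(CPM + 1) scale. It was 45.2, 24.99 and 37.9 CPM in injury-side sections 2, 3 and 7 and had 0 counts in sections 1 and 5, against 0 to 275.1 CPM on the remote side (median 88.0). The 3 injury-side sections with counts lay below the remote-side median, and 0 counts allow up to 71.8 CPM in section 1 and 102.7 CPM in section 5. Over the domain it was 20.04 CPM on the injury side, from 4 counts, and 112.5 CPM on the remote side, 0.178-fold (0.0481 to 0.463). At 3 dpi PSMC6 was 150.1, 251.0, 387.3, 172.9 and 159.4 CPM in injury-side sections 1, 7, 8, 9 and 10, against 28.5 to 146.6 CPM on the remote side (median 82.9). No section overlapped there, and the domain level was 2.99-fold (2.22 to 3.98). The 7 dpi log2 difference of −2.43 depended on the sections. A lower section minimum turned it to 0.17, and it was −0.07 with a higher one, −0.63 with domains of equal section number and −0.52 without section 34. Each of these alternatives also moved the domain boundaries.

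The other constitutive members at the low end at 7 dpi rested on few counts. PSMD11 (ENSDARG00000060150), a lid subunit that clamps the cap to the core, had 1 count on the injury side and 29.4 CPM on the remote side at 7 dpi, 0.170-fold (0.00423 to 0.988), and was 3.03-fold at 3 dpi (1.54 to 5.599). The ATPase gene psmc1b had 2 counts on the injury side at 7 dpi, 0.272-fold (0.0323 to 1.02), and section 34 held 38.8% of its counts. Leaving out that section also moved the domain boundaries, and the psmc1b log2 difference then turned from −1.78 to 0.35. PSMB4, a beta subunit without catalytic activity, was the remaining one past 2-fold, at 75.0 to 341.3 CPM in injury-side sections and 223.8 to 885.9 CPM in remote-side ones at 7 dpi, 0.433-fold (0.292 to 0.620). PSMB4 and the 1.22-fold level of the same gene at 3 dpi (0.852 to 1.71) were picked after their values were seen.

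At 3 dpi the highest constitutive members were PSMD10, psma2a and psmd4b. PSMD10, a chaperone of cap assembly, was 200.2, 15.7, 108.5, 64.8 and 39.9 CPM in injury-side sections 1, 7, 8, 9 and 10, against 0 to 50.6 CPM on the remote side (median 17.9), a 5.09-fold domain level (2.86 to 8.79). Sections 1, 8 and 9 exceeded the remote-side range, and sections 7 and 10 did not. The gene psmd4b, a ubiquitin receptor of the cap, was 3.39-fold (1.87 to 5.87), and with a lower section minimum, under which the injury side was sections 1 to 6, its log2 difference turned from 1.71 to −1.06. PSMD9, another assembly chaperone, had the lowest level after the PSME4 genes, 0.904-fold (0.236 to 2.48).

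PSME4, an activator that caps the core without ATP and is known for a role in DNA repair and sperm formation in mammals, went the other way at 3 dpi. At 7 dpi PSME4 (ENSDARG00000018742) was 1.11-fold on the injury side (0.491 to 2.23), with 311.1 CPM in section 21 of the middle domain. Its log2 difference turned from 0.15 to −1.03 without section 34, which also moved the domain boundaries. PSME4 (ENSDARG00000087911) had 15 counts in all at 7 dpi. At 3 dpi the first of these was 25.02, 47.06, 30.99, 0 and 19.9 CPM in injury-side sections 1, 7, 8, 9 and 10, against 20.3 to 99.3 CPM in the middle (median 66.5) and 0 to 114.9 CPM on the remote side (median 54.8). The 4 injury-side sections with counts lay below the medians of the other domains, and 0 counts in section 9 allow up to 64.8 CPM. The domain level was 26.4 CPM on the injury side and 60.2 CPM on the remote side, 0.440-fold (0.174 to 0.927). PSME4 (ENSDARG00000087911) was 0.245-fold (0.0292 to 0.914), from 2 counts on the injury side. No other member was past 2-fold in this direction at 3 dpi.

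Between the hearts, 39 of the 43 genes had 50 counts in each. Over all kept sections, 6 of the 39 were at least 2-fold higher in the 7 dpi heart than in the 3 dpi heart, beside 22.3% of 3497 genes, and 3 were lower, beside 13.9%. The median log2 difference was 0.25, beside 0.18 over all genes, with 0.04 for the immunoproteasome and 0.26 for the constitutive members. Median-of-ratios scaling left 2 members higher, and totals without the ID of highest count also left 2. The ID of highest count was not the same in the 2 hearts. That of the 7 dpi heart held 6.445% of its counts and that of the 3 dpi heart 20.41%. Each is part of the totals used for CPM. The 6 higher ones were PSMD14, the enzyme of the lid that removes ubiquitin chains, PSMB4, PSMC4, PSMC1, PSMA6 (ENSDARG00000013966) and PSMA8. PSMD14 was 324.6 CPM at 7 dpi and 115.7 CPM at 3 dpi, 2.81-fold (2.51 to 3.14), and PSMB4 was 349.4 CPM at 7 dpi and 141.8 CPM at 3 dpi, 2.46-fold (2.22 to 2.73). The 3 lower ones were PSMB8, PSMD1 and PSMB1. PSMB8 was 39.1 CPM at 7 dpi and 97.8 CPM at 3 dpi, 0.400-fold (0.324 to 0.491). PSMD1, a scaffold of the cap, was 27.6 CPM at 7 dpi and 68.5 CPM at 3 dpi, 0.402-fold (0.313 to 0.514). PSMB1, a beta subunit without catalytic activity, was 90.5 CPM at 7 dpi and 193.4 CPM at 3 dpi, 0.468-fold (0.407 to 0.536).

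**Figure D5:**
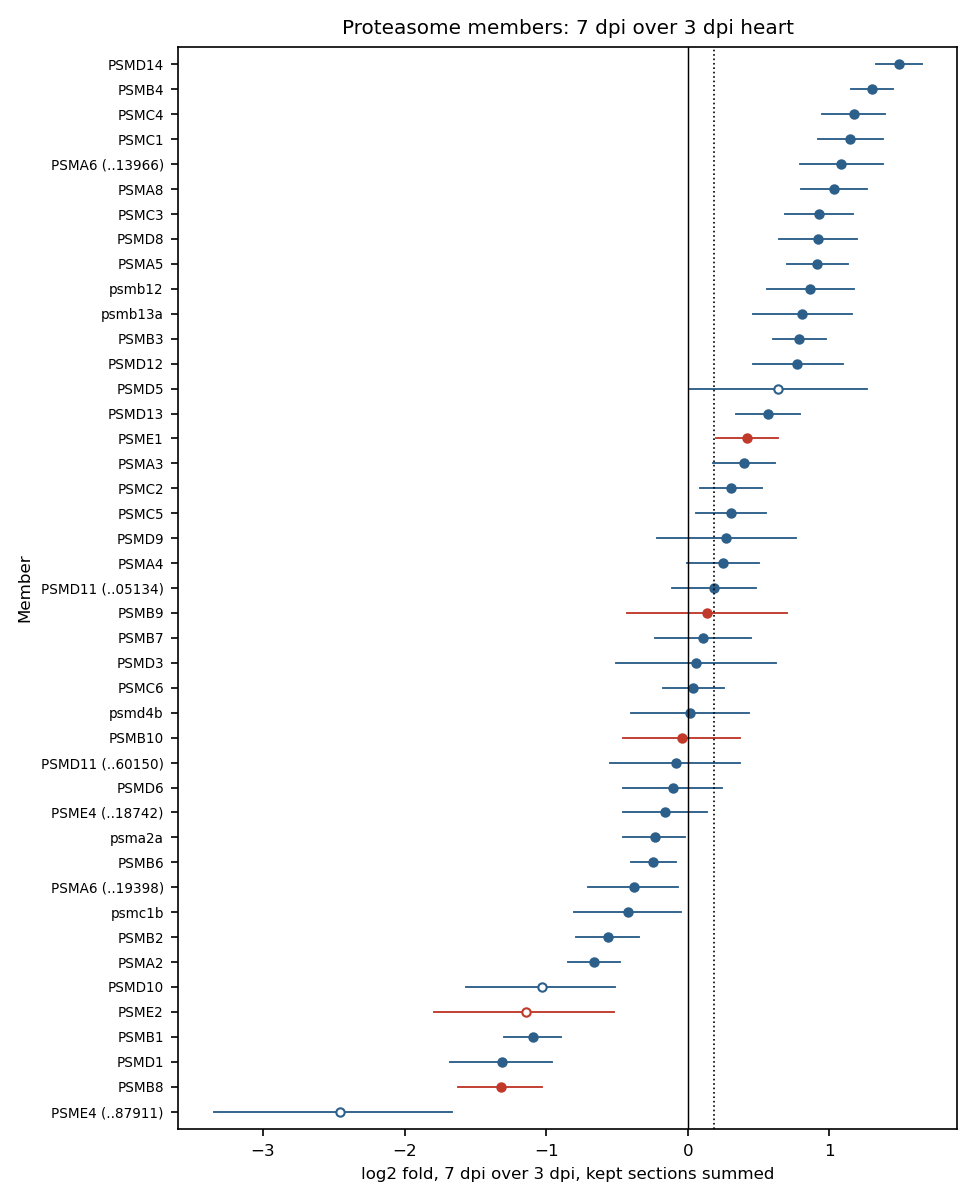
Log2 of the 7 dpi over the 3 dpi level over all kept sections for each of the 43 genes, in order; bars are exact 95% intervals of the counts, open symbols are genes under 50 counts in a heart, red marks the immunoproteasome, and the dotted line is the median of all genes. PSMD14 had the highest fold, 2.81, and PSMB8 the lowest among genes with 50 counts in each heart, 0.400.

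By domain, 1 of the 39 injury-side levels, that of PSMA5, was past 2-fold higher at 7 dpi than at 3 dpi, beside 15.2% of all genes, and 13 were lower, beside 41.9%. In the middle 0 were higher, beside 20.2%, and 7 lower, beside 22.9%. On the remote side 10 were higher, beside 28.9%, and 0 lower, beside 11.9%. PSMB8 was the farthest on the injury side, with a log2 difference of −3.78 between 7 and 3 dpi, and on the remote side it was −0.64. The domains of the hearts hold unlike tissue, as the cardiomyocyte marker sums above show, and the part of this in the counts was not tested.

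Across sections the sums of the immunoproteasome and the constitutive members had Pearson r = 0.16 and Spearman rho = 0.30 over 24 sections at 7 dpi, and r = 0.87 and rho = 0.87 over 35 sections at 3 dpi. These points share the section's RNA, its depth and the total they are scaled by, and are given as a description. At 7 dpi the immunoproteasome sum had r = 0.21 with leukocyte, 0.30 with lymphocyte, −0.30 with cardiomyocyte, −0.25 with endothelium, −0.56 with erythrocyte, 0.02 with epicardium and fibroblast, and 0.09 with smooth muscle markers. In the same order the constitutive sum had r = 0.18, −0.40, −0.21, 0.07, 0.02, 0.32 and 0.36. Some values of the constitutive sum rested on few sections. With cardiomyocyte markers rho was 0.20, and r was 0.09 without the 2 sections farthest from the median. Without the 2 farthest, r was 0.06 with lymphocyte and 0.01 with leukocyte markers. For the immunoproteasome sum, r without the 2 farthest was −0.03 with endothelium, 0.18 with lymphocyte and −0.03 with smooth muscle markers. It was 0.17 with leukocyte, −0.29 with cardiomyocyte, −0.62 with erythrocyte, and 0.08 with epicardium and fibroblast markers. At 3 dpi the immunoproteasome sum had r = 0.76, 0.47, −0.79, −0.17, 0.01, 0.72 and 0.48 with these 7 lists, and the constitutive sum 0.82, 0.32, −0.84, −0.03, 0.00, 0.78 and 0.39. The lymphocyte list had 0 measured genes at 3 dpi. Without the 2 farthest sections, r with it was 0.25 for the immunoproteasome and 0.12 for the constitutive sum.

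The genes outside the family with the most similar profile were named by Spearman rho across sections, among 1297 named genes with 200 counts at 7 dpi and 1316 at 3 dpi. For the immunoproteasome sum they were NUCKS1 (0.74), eif4a1b (0.67), calm1a (0.67), COL12A1 (0.67) and LSM8 (0.63) at 7 dpi, and PPIB (0.88), tuba5 (0.86), grna.2 (0.85), actb1 (0.85) and grna.1 (0.85) at 3 dpi. For the constitutive sum they were HSPA8 (0.70), actb1 (0.67), CFL1 (0.63), ITGAV (0.61) and ARF5 (0.61) at 7 dpi, and TIMP2 (0.95), MSN (0.92), tuba5 (0.92), grna.2 (0.92) and txnb (0.91) at 3 dpi. Among these, HSPA8 encodes a cytosolic chaperone and stood at 5507 CPM on the injury side and 5834 CPM on the remote side at 7 dpi. The granulin gene grna.2 was 2078 CPM on the injury side and 42.0 CPM on the remote side at 3 dpi.

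Genes that work with the proteasome were described from fixed lists, by the same injury-side over remote-side ratio. Their counts stand beside 15.4% of all genes higher and 31.1% lower at 7 dpi, and 33.8% higher and 15.8% lower at 3 dpi. Of the assembly chaperones and regulators outside the family, 3 of 7 measured genes were higher and 0 lower at 7 dpi (median 0.19), and 2 of 6 higher and 0 lower at 3 dpi (median 0.95). PSMG2, a chaperone of the alpha ring, was 2.07-fold at 7 dpi (1.64 to 2.59) and 1.63-fold at 3 dpi (0.666 to 3.46). ADRM1, a ubiquitin receptor of the cap, was 2.33-fold at 7 dpi (1.13 to 4.45) and 3.24-fold at 3 dpi (2.06 to 4.97). USP14, a deubiquitinase bound to the cap, was 0.561-fold at 7 dpi (0.149 to 1.502) and 1.97-fold at 3 dpi (0.672 to 4.79). POMP, the maturation factor of the core, was 0.855-fold at 7 dpi (0.520 to 1.34) and 2.16-fold at 3 dpi (1.61 to 2.86).

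Ubiquitin, its activating enzyme and shuttles to the proteasome had 0 of 9 genes higher and 2 lower at 7 dpi (median 0.05), and 4 of 11 higher and 0 lower at 3 dpi (median 0.81). UBB, a polyubiquitin gene, was 0.407-fold on the injury side at 7 dpi (0.261 to 0.607) and 0.733-fold at 3 dpi (0.610 to 0.874). VCP, the ATPase that pulls ubiquitin-tagged proteins out of complexes, was 3.57-fold at 3 dpi (1.74 to 6.88), the highest of the list there. At 7 dpi the highest was the shuttle UBQLN4, 1.31-fold (0.654 to 2.42), and the lowest the conjugating enzyme UBE2D3, 0.349-fold from 3 counts (0.0704 to 1.06). The list for the control of proteasome genes had 2 measured genes, with 0 higher and 1 lower at 7 dpi, and 1 higher and 0 lower at 3 dpi. Of these, nfe2l1b, whose mammalian counterpart raises proteasome genes when the proteasome is blocked, was 5.01 CPM on the injury side, from 1 count, and 48.4 CPM on the remote side at 7 dpi, 0.104-fold (0.00259 to 0.592), and 0.740-fold at 3 dpi (0.195 to 2.004). NFE2L2, a regulator of the oxidative stress response, was 0.786-fold at 7 dpi (0.330 to 1.61) and 2.92-fold at 3 dpi (1.92 to 4.33).

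The interferon response list had 4 of 8 genes higher and 0 lower at 7 dpi (median 0.87), beside 15.4% and 31.1% of all genes, and 3 of 7 higher and 0 lower at 3 dpi (median 0.82), near the 33.8% of all genes that were higher there. IRF8, a factor of myeloid cells, was 5.96-fold on the injury side at 7 dpi (3.64 to 9.59) and 9.21-fold at 3 dpi (4.68 to 17.99). The ubiquitin-like gene isg15 was 2.07-fold at 7 dpi (1.38 to 3.03) and 10.7-fold at 3 dpi (7.40 to 15.4). The gene irf1b was 1.07-fold at 7 dpi (0.535 to 1.95) and 0.715-fold at 3 dpi (0.320 to 1.40), the lowest there, and the kinase gene JAK1 was the lowest at 7 dpi, 0.898-fold (0.691 to 1.151). Class I antigen presentation had 0 of 6 genes higher and 1 lower at 7 dpi (median 0.01), and 2 of 5 higher and 0 lower at 3 dpi (median 0.47). In that list b2m, the light chain of class I molecules, was 3598 CPM on the injury side and 3574 CPM on the remote side at 7 dpi, and 2716 CPM on the injury side and 1959 CPM on the remote side at 3 dpi. CALR had the highest level relative to the remote side at 7 dpi, 1.76-fold (1.36 to 2.26), TAP1, a peptide transporter, the lowest, 0.433-fold from 1 injury-side count (0.0105 to 2.68), and at 3 dpi the chaperone gene CANX was the highest, 2.93-fold (1.60 to 5.10), and b2ml the lowest, 1.04-fold (0.876 to 1.23).

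The muscle ubiquitin ligase genes trim63a and trim63b, which tag proteins of the contractile apparatus, were lower on the injury side in both hearts, as the cardiomyocyte markers were. At 7 dpi both had 0 counts on the injury side, beside 40.5 and 38.9 CPM on the remote side, which is at least 2.69-fold and 2.59-fold lower at a floor of 3 counts over the domain. At 3 dpi trim63a was 0.307-fold (0.157 to 0.542) and trim63b 0.487-fold (0.330 to 0.694) on the injury side.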

How the data were processed

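CEL-seq libraries of single cryosections of 1 heart at 7 dpi and 1 at 3 dpi were analysed from the deposited tables, 1 per heart with a column per section. Reads were aligned with BWA 0.6.2, per the submitters' processing notes. Which build and annotation were used, and whether molecules carried identifiers, is not given in the sources used here, so reads are not taken as independent molecules. The deposited values are counts per gene, whole numbers without normalization; their unit is entered as other, since the automatic unit test does not read columns named by numbers. The labels order sections from injury to remote myocardium, and the column numbers were read in that order. Spike-in rows, 44 at 7 dpi and 19 at 3 dpi, stayed out of totals, and columns of other samples numbered 0. A symbol table named 13135 of the IDs at 7 dpi and 13441 at 3 dpi.

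Sections were kept from 20% of the 75th percentile of section totals, 16192 counts at 7 dpi and 24571 at 3 dpi. To set the domains, the kept sections were cut into 3 runs of 4 or more sections by least squares, using log2(CPM + 10), z-scored, of the 2000 most abundant genes outside the proteasome. Counts were summed per domain and scaled to 1000000. Log2 differences used a pseudocount of 1 CPM. Intervals are exact Poisson for levels, exact (Clopper-Pearson) binomial for shares, and binomial-based for folds. Named were all immunoproteasome members, PSMB6, PSMB7, PSME4, psmb12, psmb13a, the 3 highest and 3 lowest constitutive members of each heart, and the extreme genes of each list. Some genes were named outside this rule, among them POMP, b2m, PSMB4 and the members past 2-fold between the hearts. The members and all lists were chosen with earlier results of these data known. List symbols were matched in any case, with or without a final a or b where the table had capitals. Alternatives numbered 14, of which 2 were added after seeing the data. The computations were checked on simulated data. Python 3.11.15, numpy 2.4.6, pandas 2.3.3, scipy 1.17.1 and matplotlib 3.10.9 were used.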

Additional observations from a re-analysis of the deposited data

Results flagged for a closer look

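For 3 members the log2 ratio of the injury side over the remote side was at least 1 in size and opposite in the hearts, lower on the injury side at 7 dpi and higher there at 3 dpi. The 7 dpi minus 3 dpi difference of these log2 values was −3.14 for PSMB8, −4.00 for PSMC6 and −3.89 for PSMD11 (ENSDARG00000060150). With 1 heart per day the difference was not tested. On the injury side at 7 dpi these genes had 3, 4 and 1 counts. PSMB8 and PSMC6 turned positive at 7 dpi under a section minimum of 5%, at 0.18 and 0.17.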

How the results depend on the processing

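No paired analysis was possible because each day had 1 heart. Under 14 alternatives, 130 summary values stayed within their spread, or within 1.5 times for counts, and 62 did not. Of single-gene values 447 stayed, 28 moved and 5 reversed. The 5 reversed values were each at least 2-fold in the main setting. Changes of sign from a smaller main value, such as that of psmb13a above, were counted as stayed or moved. Summary values were not labelled as reversed, also where their sign changed. The causes were not tested. Values below are log2 medians for immunoproteasome and constitutive members, shares in percent, and counts of members past 2-fold.

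A section minimum of 5% moved the domains and gave 0.34 (constitutive), 5.18% in the middle and 1 lower member at 7 dpi, 1.80 and 0.91 (immunoproteasome, constitutive) and 14.7% on the injury side at 3 dpi, and 0.22 (constitutive) between hearts; the reversed single genes were PSMB8 at 0.18 and PSMC6 at 0.17 at 7 dpi and psmd4b at −1.06 at 3 dpi. A minimum of 40% gave 0.29 (constitutive) and 1 lower at 7 dpi, 1 lower at 3 dpi and −0.12 (immunoproteasome) between hearts. Domains of equal section number gave 7.08% in the middle and 1 lower at 7 dpi, and 1 lower at 3 dpi.

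Median-of-ratios scaling gave −0.25 (constitutive) at 7 dpi, 0.61 and 0.43 (immunoproteasome, constitutive) with 1 higher at 3 dpi, and −0.15, 0.072 and 2 higher between hearts. Totals without the ID of highest count of each heart gave 1.06 (constitutive) at 3 dpi, and −0.18, 0.035 and 2 higher between hearts. A pseudocount of 10 CPM gave 1.01 and 1.14 with 1 lower at 3 dpi, and 0.22 (constitutive) between hearts. The mean of section CPM gave 0.97 (immunoproteasome) at 3 dpi, and 0.087 (constitutive) with 5 lower between hearts. No count minimum gave 5 lower between hearts. A minimum of 200 counts gave 2 higher, 2 lower, shares of 4.72% (middle) and 4.62% (remote side) at 7 dpi, 18 higher, 1 lower, shares of 7.48% (middle) and 6.70% (remote side) at 3 dpi, and 0.41, 0.39 and 1 lower between hearts.

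Without the deepest section, which moved the 7 dpi domains, the 7 dpi values were −0.41 (immunoproteasome), 1 higher and 5.99% on the remote side, with psmc1b reversed at 0.35 and PSMA6 (ENSDARG00000019398) at −0.16, and 0.32 (constitutive) between hearts. Without each gene's section of most counts, chosen after seeing the data, the immunoproteasome median was 0.76 at 3 dpi. Domains from genes in no marker list, also added, changed nothing. With psmb12 and psmb13a as immunoproteasome genes, the shares from injury to remote side were 11.3%, 10.2% and 7.96% at 7 dpi and 12.2%, 11.6% and 9.87% at 3 dpi, and the median between hearts was 0.27. With catalytic subunits alone they were 30.9%, 32.9% and 24.2% at 7 dpi and 45.1%, 41.6% and 30.8% at 3 dpi. The injury-side domain had the fewest counts, 199560 at 7 dpi and 264710 at 3 dpi, so low members there rested on a few counts.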
